A study of Homo sapiens with 10 samples.

Results

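SMOC1, a secreted antagonist of bone morphogenetic proteins (BMPs), was examined together with 9 other genes of BMP and transforming growth factor beta (TGFB) signalling: ID1, ID2, ID3, ID4, SMAD6, SMAD7, BAMBI, BMP4 and BMP7. The members are the rows with these 10 symbols among the 23426 gene symbols of the expression files, and all 10 were present in every sample. SMOC1 was selected on its FPKM in PKC412 against DMSO in both cell lines, and the other members by their roles, with earlier results of these data in view. The PKC412 values of SMOC1 are therefore a description and carry no test. The question addressed was whether that difference in SMOC1 went with differences in the BMP target genes. All 10 members passed the filter on low values, a mean above 0.1 FPKM (sequenced fragments relative to transcript length and to the number mapped) in at least 1 group. ID4 passed it through MDA-MB-468 alone.

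RNA was sequenced from 2 established human breast cancer cell lines, the basal-like, triple-negative line MDA-MB-468 and the luminal line ZR75-1. Each line was kept for 6 h in DMSO, the solvent (2 samples), or in 1 μM PKC412, also known as midostaurin, an inhibitor of many protein kinases (3 samples), which gave 4 groups and 10 samples. The sample labels and the methods give this dose, and legends of the study name another one. Each cell type is represented by a single line, and the labels do not say whether samples were separate cultures, so p-values measure only the spread between these samples. The summed FPKM of 7 basal markers ranged from 2497 to 2724 in MDA-MB-468 and from 0.591 to 2.03 in ZR75-1. The summed FPKM of 7 luminal markers was 7605 or more in every ZR75-1 sample, and in MDA-MB-468 it was 3096 and 2643 in DMSO and 1270, 1722 and 1424 in PKC412, most of it KRT19, a keratin that overlapped between the lines. ESR1, the estrogen receptor and a defining luminal marker, was between 2.63 and 8.28 FPKM in ZR75-1 and at most 0.461 FPKM in MDA-MB-468. Pearson correlations of log2(FPKM + 1) across genes between samples of a group were 0.957 to 0.983. No read totals accompany the FPKM, so depth is unknown and no counting interval is given.

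BMPs are secreted ligands that bring together type I and type II receptors with serine/threonine kinase activity. The receptors phosphorylate SMAD1, SMAD5 and SMAD9, which join SMAD4 and act on transcription in the nucleus, while TGFB and activins act through SMAD2 and SMAD3. ID genes, SMAD6 and SMAD7 are classical targets of BMP-activated SMADs, and SMAD6, SMAD7 and BAMBI in turn inhibit the pathway. SMOC1 belongs to the SPARC family of calcium-binding matricellular proteins. MDA-MB-468 is known to carry a deletion of SMAD4.

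The 250 bases before the transcription start, as RefSeq gives it on GRCh38.p14, are shown for SMOC1, for the most abundant targets ID1 and ID3, and for SMAD6, the member with a palindromic SMAD site. They are written 5′ to 3′ on the strand of the gene, and capitals mark GTCTAGAC, GGCGCC, and TGACG or its reverse complement CGTCA.
SMOC1: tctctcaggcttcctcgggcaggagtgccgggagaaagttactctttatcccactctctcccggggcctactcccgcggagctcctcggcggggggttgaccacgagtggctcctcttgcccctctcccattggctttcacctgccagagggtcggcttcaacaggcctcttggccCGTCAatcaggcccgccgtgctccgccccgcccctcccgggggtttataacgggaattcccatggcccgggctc
ID1: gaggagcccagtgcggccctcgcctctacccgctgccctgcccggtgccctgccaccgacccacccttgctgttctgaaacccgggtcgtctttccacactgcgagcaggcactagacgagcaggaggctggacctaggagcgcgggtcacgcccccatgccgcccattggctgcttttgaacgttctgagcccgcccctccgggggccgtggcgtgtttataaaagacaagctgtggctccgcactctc
ID3: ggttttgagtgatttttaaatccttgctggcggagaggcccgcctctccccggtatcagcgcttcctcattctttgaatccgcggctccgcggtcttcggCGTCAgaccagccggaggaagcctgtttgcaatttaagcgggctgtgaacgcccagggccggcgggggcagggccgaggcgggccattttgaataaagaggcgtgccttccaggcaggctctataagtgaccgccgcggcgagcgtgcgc
SMAD6: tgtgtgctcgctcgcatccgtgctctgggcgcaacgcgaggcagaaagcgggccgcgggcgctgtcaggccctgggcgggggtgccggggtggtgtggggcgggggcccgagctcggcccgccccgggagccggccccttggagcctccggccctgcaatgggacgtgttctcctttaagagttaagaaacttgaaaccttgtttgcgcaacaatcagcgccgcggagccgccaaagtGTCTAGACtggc
The windows are chr14:69879166-69879415 on the plus strand for SMOC1, chr20:31605039-31605288 on the plus strand for ID1, chr1:23559502-23559751 on the minus strand for ID3 and chr15:66701986-66702235 on the plus strand for SMAD6. The SMOC1 window lies inside the GENCODE 29 span of the gene (chr14:69854131-70032366), which starts farther upstream. The motifs were searched on both strands as exact letters in 35116 windows of 250 bases, and 9 of the 10 members had such a window (BMP7 had none). SMAD7 and BMP4 had 3 windows each, for 13 member windows in all.

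GTCTAGAC, the palindromic SMAD-binding element, was found in 0.182% of all windows and, among the members, in SMAD6 only, 12 to 5 bases before its start. GGCGCC, a GC-rich element bound by BMP-activated SMADs, was in 16.4% of all windows and in that of BAMBI and 1 of the 3 of BMP4. CAGAC, the short SMAD box, was in 38% of all windows and in 7 of the 13 member windows, from 5 members. TGACGTCA, the cAMP response element, was in 1.65% of all windows and in no member. Its core TGACG, which overlaps it, was in 21.2% of all windows and in SMOC1 (74 to 70 bases before the start) and ID3. These matches describe the letters of the windows only.

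SMOC1 stood at 2.71 and 2.76 FPKM in the DMSO samples of MDA-MB-468 and at 21.2, 19.3 and 21.3 FPKM in its PKC412 samples. In ZR75-1 it stood at 1.34 and 1.42 FPKM in DMSO and at 22.5, 28.4 and 26.2 FPKM in PKC412. All 3 PKC412 samples of each line lay far above both DMSO samples, and the samples of a group lay close together. The ratio of group means was 7.53 in MDA-MB-468 (20.6 ± 1.11 against 2.74 ± 0.0303 FPKM, SD, n = 3 and 2) and 18.6 in ZR75-1 (25.7 ± 2.97 against 1.38 ± 0.0575 FPKM). On the log2(FPKM + 1) scale, used for all differences below, these are differences of 2.53 and 3.48, against medians over all 16071 genes tested of 0.11 and 0.07. In the order of its levels SMOC1 was lowest in ZR75-1 DMSO, then MDA-MB-468 DMSO, MDA-MB-468 PKC412 and ZR75-1 PKC412, and no 2 of these groups overlapped. In bulk RNA, a larger share of cells with a transcript and more of it per cell cannot be told apart.

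The DMSO levels of SMOC1 were part of the values that chose it, so the order of the lines in DMSO, 2.74 against 1.38 FPKM on average, is a description as well. ID4 passed the filter on low values through MDA-MB-468 alone, so its DMSO levels of 1.67 and 1.84 FPKM there and 0.0183 and 0.0744 FPKM in ZR75-1 are also given without a test. The other 8 members were tested in DMSO between the lines with limma, a linear model with a spread shared across genes. BMP7 was higher in MDA-MB-468 by 1.35 (adjusted p = 1.58e-04) and SMAD6 by 0.76 (adjusted p = 0.0286), and BAMBI was lower, with a log2 difference of -1.25 (adjusted p = 0.00172). The other 5 members did not pass. That is 3 of 8, where 42.4% of all genes passed, 26.5% with the higher level in MDA-MB-468 and 15.9% with the lower. The SMAD6 call was lost without MDA-MB-468 DMSO sample 1 (adjusted p = 0.111), without sample 2 of that group (0.0896) and without ZR75-1 DMSO sample 1 (0.168).

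**Figure D1:**
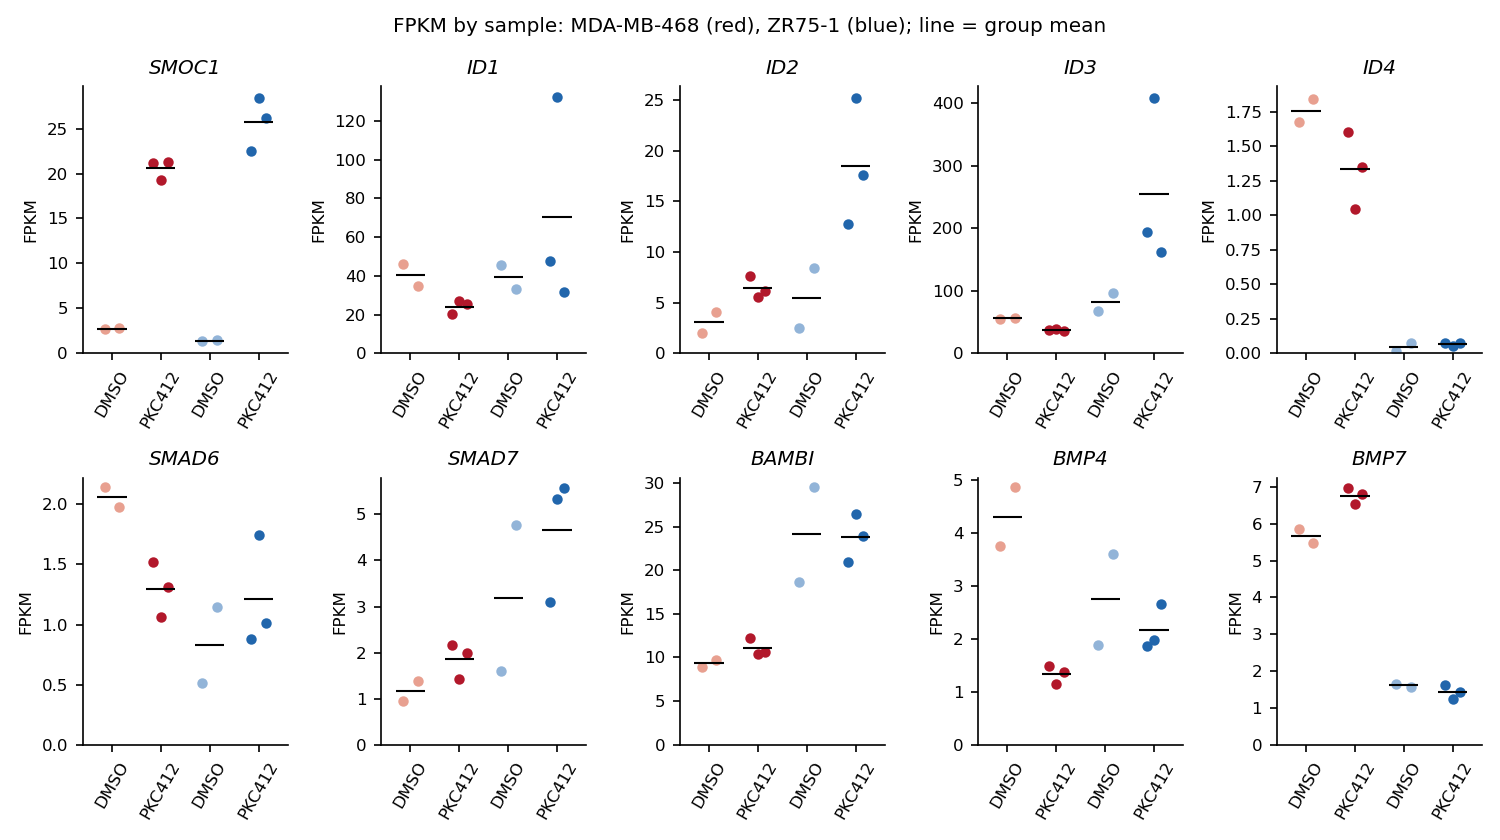
FPKM of the 10 members in each sample (y axis, linear, from 0), by line and agent (x axis); points are samples and black lines group means. SMOC1 is between 19.3 and 28.4 FPKM in every PKC412 sample and at most 2.76 FPKM in every DMSO sample, while ID1 and ID3 have their highest value in 1 ZR75-1 PKC412 sample (132 and 409 FPKM).

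Both ligands among the members were detected in both lines. BMP4 stood at 3.75 and 4.86 FPKM in MDA-MB-468 DMSO and at 1.49, 1.14 and 1.38 FPKM in PKC412, so all 3 PKC412 samples lay below both DMSO samples. The ratio of means was 0.311 and the log2 difference -1.18 (SE 0.23), which did not pass the threshold of 0.05 (adjusted p = 0.0568). In ZR75-1 BMP4 was at 1.89 and 3.59 FPKM in DMSO and at 1.87, 1.98 and 2.66 FPKM in PKC412, the groups overlapped, and the log2 difference was -0.21 (SE 0.23, adjusted p = 0.797). The BMP4 difference in MDA-MB-468 passed in 5 of 20 alternatives, with adjusted p up to 0.683 in the others. It passed after rescaling by median ratios (-1.29, adjusted p = 0.0134), after adjustment for GC content and length (-1.18, adjusted p = 0.0143), without a trend in the prior variance (adjusted p = 0.0490) and without either ZR75-1 DMSO sample (adjusted p = 0.0390 and 0.0394).

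BMP7, the other BMP ligand, was at 5.86 and 5.47 FPKM in MDA-MB-468 DMSO and at 6.97, 6.54 and 6.79 FPKM in PKC412. The groups did not overlap, with a log2 difference of 0.22 (SE 0.14, adjusted p = 0.374). In ZR75-1 it ranged from 1.24 to 1.66 FPKM over the 5 samples, with overlapping groups and a log2 difference of -0.11 (adjusted p = 0.837).

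The inhibitors among the members showed no called change. BAMBI, a pseudoreceptor without kinase activity, was at 8.96 and 9.69 FPKM in MDA-MB-468 DMSO and at 12.2, 10.4 and 10.6 FPKM in PKC412. Its log2 difference of 0.23 (SE 0.19, adjusted p = 0.495) compares with the all-gene median of 0.11. In ZR75-1 BAMBI ranged from 18.7 to 29.6 FPKM in DMSO and from 21.0 to 26.5 FPKM in PKC412, with a log2 difference of 0.0086 (adjusted p = 1) whose sign turned under rescaling (-0.12) and under GC and length adjustment (-0.08).

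SMAD6, the inhibitory SMAD that acts mainly on BMP receptors, was at 2.14 and 1.98 FPKM in MDA-MB-468 DMSO and at 1.52, 1.06 and 1.32 FPKM in PKC412. Its PKC412 samples lay below both DMSO samples in that line, with a log2 difference of -0.42 (SE 0.21, adjusted p = 0.326). In ZR75-1 SMAD6 ranged from 0.517 to 1.15 FPKM in DMSO and from 0.882 to 1.74 FPKM in PKC412, with a log2 difference of 0.27 (adjusted p = 0.690). SMAD7, which inhibits both BMP and TGFB receptors, was at 0.955 and 1.39 FPKM against 2.17, 1.44 and 1.99 FPKM in MDA-MB-468 (log2 difference 0.40, SE 0.35, adjusted p = 0.511). Its ZR75-1 samples spread from 1.59 to 4.76 FPKM in DMSO and from 3.10 to 5.57 FPKM in PKC412 (log2 difference 0.52, adjusted p = 0.642). The SMAD7 groups did not overlap in MDA-MB-468 and overlapped in ZR75-1.

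The ID genes encode helix-loop-helix proteins without a DNA-binding region, which pair with E proteins such as TCF3 and keep them from DNA. ID3 was at 54.8 and 56.3 FPKM in MDA-MB-468 DMSO and at 36.5, 38.0 and 35.9 FPKM in PKC412, so the groups were narrow and apart. In ZR75-1 it was at 67.9 and 96.8 FPKM in DMSO and at 194, 409 and 162 FPKM in PKC412, again apart but in the other direction, and the PKC412 sample 2 was by far the highest. The ratio of ID3 means was 0.663 for MDA-MB-468 and 3.10 for ZR75-1.

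The ID3 log2 difference was -0.58 in MDA-MB-468 (SE 0.35, adjusted p = 0.369) and 1.52 in ZR75-1 (SE 0.35, adjusted p = 0.136), and neither passed. The test of the difference between the lines gave -2.10 (SE 0.50), with an unadjusted p of 0.00279 and an adjusted p of 0.230. Without ZR75-1 PKC412 sample 2 the ID3 change in ZR75-1 was 1.12 and passed (adjusted p = 0.0353), as did the difference between the lines (-1.70, adjusted p = 0.0429). After GC and length adjustment the ZR75-1 change was 1.59 and passed (adjusted p = 0.0295). ID3 samples in ZR75-1 PKC412 then stood at 194, 364 and 193 FPKM, against 62.9 and 98.4 FPKM in DMSO. That was the 1 of 10 settings with all samples kept in which the ZR75-1 change passed (adjusted p up to 0.883 in the others). The difference between the lines passed in 0 of 9 such settings (adjusted p up to 0.894). With a sample left out, neither passed except without ZR75-1 PKC412 sample 2.

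ID1 was at 46.3 and 34.7 FPKM in MDA-MB-468 DMSO and at 20.2, 27.0 and 25.2 FPKM in PKC412, with all PKC412 samples below both DMSO samples (log2 difference -0.72, SE 0.51, adjusted p = 0.425). In ZR75-1 it was at 45.8 and 32.9 FPKM in DMSO and at 47.9, 132 and 31.4 FPKM in PKC412. These groups overlapped, and the log2 difference of 0.58 (adjusted p = 0.734) became -0.0020 without PKC412 sample 2. ID2 was at 2.02 and 4.10 FPKM against 7.64, 5.56 and 6.14 FPKM in MDA-MB-468 (log2 difference 0.91, SE 0.45, adjusted p = 0.323). In ZR75-1 ID2 was at 2.51 and 8.38 FPKM against 12.8, 25.2 and 17.6 FPKM (log2 difference 1.72, SE 0.45, adjusted p = 0.192). ID2 was the member whose PKC412 samples lay above the DMSO samples in both lines, besides SMOC1, and its DMSO samples differed widely within each line.

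ID4 was nearly confined to MDA-MB-468, with 1.67 and 1.84 FPKM in DMSO and 1.60, 1.05 and 1.35 FPKM in PKC412, and at most 0.0755 FPKM in any ZR75-1 sample. Its MDA-MB-468 groups did not overlap (log2 difference -0.25, SE 0.10, adjusted p = 0.299), and the difference passed after GC and length adjustment, the 1 of 20 alternatives in which it did (-0.45, adjusted p = 0.0143).

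In total, 0 of the 9 members tested passed with limma for PKC412 in MDA-MB-468, where 1.26% of all genes passed. In ZR75-1 0 of 9 passed, where 0.946% of all genes did, and for the difference between the lines 0 of 9, where 0.268% did. ID4 passed the filter on low values through MDA-MB-468 alone and was at most 0.0755 FPKM in ZR75-1. At such levels its ZR75-1 test could hardly pass, and its difference between the lines rests on MDA-MB-468. At an unadjusted p under 0.05 there were 2 in MDA-MB-468 (BMP4, ID4), 2 in ZR75-1 (ID2, ID3) and 3 for the difference (ID3, BMP4, SMAD6), where 16.4%, 11.2% and 7.05% of all genes were under it. The groups of all 9 members did not overlap in MDA-MB-468, 4 with PKC412 above DMSO and 5 below. There 55.9% of all genes had groups that did not overlap, 39.6% with PKC412 above and 16.3% below. In ZR75-1 the groups of 2 members, ID2 and ID3, did not overlap, both with PKC412 above, where 21.7% of all genes did not overlap and 14.8% had PKC412 above. The median log2 difference of the 9 members was -0.25 for MDA-MB-468 (0.11 over all genes) and 0.27 for ZR75-1 (0.07 over all genes).

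**Figure D2:**
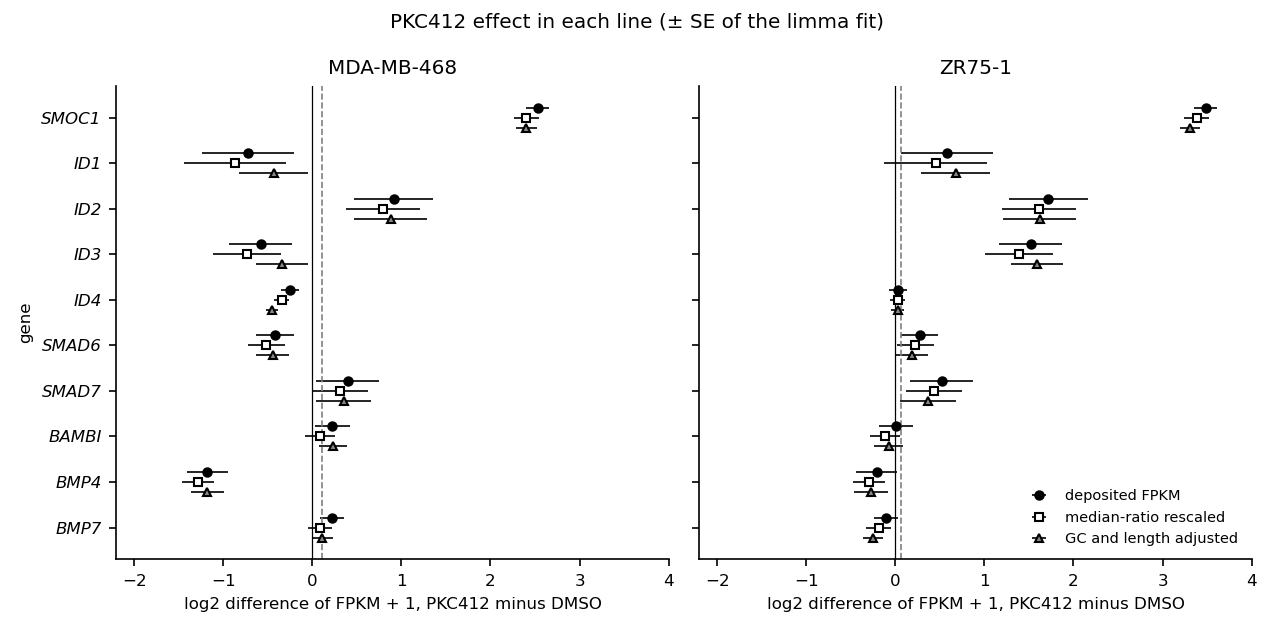
Log2 difference of FPKM + 1, PKC412 minus DMSO (x axis), for each member (y axis) in each line, with SE bars from limma; filled circles use the deposited FPKM, open squares the FPKM rescaled by median ratios and triangles the FPKM adjusted for GC content and length, and the dashed line is the median of all genes. SMOC1 is at 2.53 and 3.48, BMP4 at -1.18 in MDA-MB-468, and ID3 at -0.58 in MDA-MB-468 and 1.52 in ZR75-1.

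Values also moved with the GC content of transcripts within a line. The slope of a sample's deviation from its line mean in MDA-MB-468 was 0.373 and 0.0573 log2 units per 10 points of GC for DMSO and -0.287, -0.0240 and -0.119 for PKC412, so the 2 groups were apart in this measure. In ZR75-1 it was 0.314 and -0.192 in DMSO and -0.107, 0.342 and -0.356 in PKC412, and sample 2 of PKC412, which had the highest ID1 and ID3, also had the highest slope. After the adjustment ID1 and ID3 of that sample were still 115 and 364 FPKM, the highest of their group. The adjustment moved the all-gene median in MDA-MB-468 from 0.11 to 0.0068 and in ZR75-1 from 0.07 to 0.0042. With the adjustment the ID1 difference in MDA-MB-468 was -0.43 in place of -0.72 and that of ID3 -0.34 in place of -0.58, while BMP4 stayed at -1.18, ID4 was -0.45 in place of -0.25, and BMP7 was 0.11 in place of 0.22. In ZR75-1 the ID2 difference was 1.62 and that of ID3 1.59. Against the unadjusted all-gene median of 0.11, BAMBI and BMP7 in MDA-MB-468 were higher by 0.12 and 0.11.

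The wider pathway was described from 12 gene lists with 127 genes besides SMOC1, of which 126 were in the files and 94 passed the filter on low values. In MDA-MB-468, 4 of the 94 passed for PKC412 (4.26%, median log2 difference 0.09). BMP6, a BMP ligand, rose, and BMP2, another ligand, CTGF, a matricellular TGFB target, and SPOCK2, a SPARC family proteoglycan, fell. In ZR75-1, 3 of the 94 passed (3.19%, median 0.09), and SMOC2, ANGPTL4 and COL1A1 rose. The difference between the lines passed for 3 genes (3.19%), CTGF, SMOC2 and SPOCK2, each near or at 0 FPKM in 1 line, as given below. Over all genes tested, 1.26%, 0.946% and 0.268% passed in these 3 comparisons. The lists were chosen with earlier results of these data known, so these shares are a description. At an unadjusted p under 0.05 there were 30, 18 and 21 of the 94 genes, where 16.4%, 11.2% and 7.05% of all genes were under it.

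CTGF was at 7.40 and 9.30 FPKM in MDA-MB-468 DMSO and at 0.884, 0.622 and 0.658 FPKM in PKC412. All 3 PKC412 samples were below 1 FPKM, and the log2 difference was -2.44 (SE 0.12, adjusted p = 8.20e-05). In ZR75-1, CTGF was at most 0.203 FPKM in any sample, and all 3 PKC412 samples (0.0404, 0.0287 and 0.0853 FPKM) again lay below both DMSO samples (0.180 and 0.203 FPKM), a ratio of means of 0.269 (log2 difference -0.18, adjusted p = 0.631). The log2 difference between the lines was -2.26 (adjusted p = 0.00195). It was not called with a pseudocount of 0.1 (-2.41, adjusted p = 0.0744) or 0.01 (-1.71, adjusted p = 0.754). SPOCK2 was at 3.81 and 3.34 FPKM in MDA-MB-468 DMSO and at 1.49, 1.62 and 1.62 FPKM in PKC412 (log2 difference -0.83, SE 0.09, adjusted p = 0.0049). This call held in 5 of 10 other settings with all samples kept. Among the others were a pseudocount of 0.1 (adjusted p = 0.0598) or 0.01 (0.311) and the line fitted alone (0.083). SPOCK2 was at most 0.0800 FPKM in ZR75-1 and passed the filter on low values through MDA-MB-468 alone, so little difference could be measured in ZR75-1. The value for the difference between the lines (-0.87, adjusted p = 0.0386) rests on that, and it was not called once any 1 of the 10 samples was left out (adjusted p from 0.0527 to 0.182).

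SMOC2, the closest relative of SMOC1 in the SPARC family, was at 2.55 and 4.06 FPKM in ZR75-1 DMSO and at 12.9, 11.9 and 15.5 FPKM in PKC412. It rose in ZR75-1 by 1.76 on the log2 scale (SE 0.18, adjusted p = 0.00539), and all 3 PKC412 samples lay above both DMSO samples. In MDA-MB-468 SMOC2 is listed at 0 in all 5 samples. Such zeros can be failed estimates, since TCF12, a widely used E protein gene, is listed at 0 in the same 5 samples, so no ratio is given and the difference between the lines for SMOC2 (-1.76, adjusted p = 0.0495) rests on them and on a filter that SMOC2 passed through ZR75-1 alone. It passed in 2 of the 10 fits with 1 sample left out.

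ANGPTL4, a secreted regulator of lipoprotein lipase and a TGFB target, was at 2.54 and 1.71 FPKM in ZR75-1 DMSO and at 6.35, 7.005 and 5.15 FPKM in PKC412 (log2 difference 1.20, SE 0.17, adjusted p = 0.0199). COL1A1, a chain of type I collagen, was at 2.25 and 2.75 FPKM against 9.11, 6.65 and 11.1 FPKM (log2 difference 1.49, SE 0.20, adjusted p = 0.0181). In both genes all PKC412 samples of ZR75-1 lay above the DMSO samples. The summed FPKM of 5 fibroblast markers moved with them in ZR75-1, from 0.0134 and 0.0231 in DMSO to 0.112, 0.0567 and 0.143 in PKC412, from LUM, DCN and PDGFRB, while COL1A2 and COL3A1 were listed at 0 in all 5 samples. The part of this in the COL1A1 result was not tested. Each of these 2 calls held in 3 of the 10 fits with 1 sample left out (adjusted p from 0.0200 to 0.0726 for ANGPTL4 and from 0.00457 to 0.148 for COL1A1).

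The BMP ligand calls were on low levels and near the threshold. BMP2 was at 0.530 and 0.555 FPKM in MDA-MB-468 DMSO and at 0.338, 0.208 and 0.234 FPKM in PKC412 (log2 difference -0.29, SE 0.05, adjusted p = 0.0498). BMP6 was at 0.272 and 0.582 FPKM against 1.20, 0.955 and 1.05 FPKM (log2 difference 0.54, SE 0.10, adjusted p = 0.0498). With 1 sample left out, BMP2 passed in 1 of 10 fits (adjusted p from 0.0365 to 0.249) and BMP6 in 2 of 10 (0.0370 to 0.289). Both genes were at most 0.0978 FPKM in ZR75-1.

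**Figure D3:**
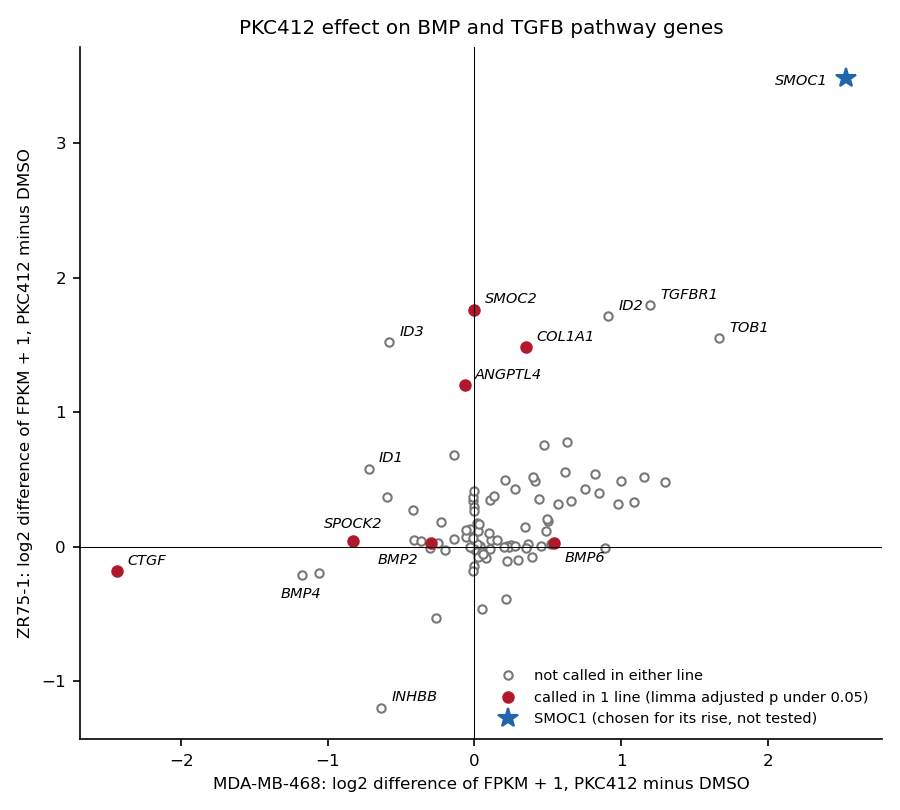
Log2 difference of FPKM + 1, PKC412 minus DMSO, in MDA-MB-468 (x axis) and ZR75-1 (y axis) for the 94 pathway genes tested; filled red points passed limma at an adjusted p under 0.05 in 1 of the lines and the star is SMOC1, which was not tested. CTGF lies far left at -2.44 and SMOC2, COL1A1 and ANGPTL4 lie high at 1.76, 1.49 and 1.20.

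The list of BMP target genes held ID1 to ID4, SMAD6, SMAD7, BAMBI and other classical targets, with 11 of 13 tested. In MDA-MB-468 none of the 11 passed with limma (2 at an unadjusted p under 0.05), 4 differences were above 0 and 7 below, and the median was -0.01. In ZR75-1 none passed (4 at an unadjusted p under 0.05), all 11 differences were above 0 with the deposited FPKM, and the median was 0.34. That of BAMBI turned below 0 under rescaling, as given above, and those of ID1, ID4, SMAD7 and BAMBI did with 1 sample left out. ID4 and HEY1 were at most 0.0755 and 0.0844 FPKM in ZR75-1, so the signs of their differences say little. These counts of signs, and those of the inhibitors below, come without the share of all genes above 0. The medians over all genes were also above 0, at 0.11 for MDA-MB-468 and 0.07 for ZR75-1. The TGFB target list had 13 genes tested, of which CTGF fell in MDA-MB-468 and ANGPTL4 and COL1A1 rose in ZR75-1, with medians of 0.16 and 0.15. Of the 13 intracellular and membrane inhibitors tested, 12 differences were above 0 for MDA-MB-468 and 11 for ZR75-1, with medians of 0.40 and 0.27, and none passed (2 at an unadjusted p under 0.05 in each line). Of the 9 receptors and 7 SMADs tested, 0 passed in either line. For the receptors 3 genes of MDA-MB-468 and 1 of ZR75-1 had an unadjusted p under 0.05, and for the SMADs 1 and 0. The receptor median was 0.45 for MDA-MB-468 and 0.0039 for ZR75-1. The lists of TGFB, activin and nodal ligands, co-receptors, ligand-processing and latency proteins and ID protein partners held no gene that passed in either line, with 4, 1, 1 and 0 genes at an unadjusted p under 0.05 in MDA-MB-468 and 3, 0, 0 and 0 in ZR75-1. Of 3 SPARC family relatives tested, SPOCK2 passed in MDA-MB-468 and SMOC2 in ZR75-1, and no other was at an unadjusted p under 0.05. Of 13 extracellular antagonists tested, the class of SMOC1, 0 passed in MDA-MB-468 with limma (6 at an unadjusted p under 0.05) and SMOC2 passed in ZR75-1 (3 at an unadjusted p under 0.05, SMOC2 included). FST, which binds activins, and NOG, which binds BMPs, named after their values were seen, had ratios of means of 0.192 and 0.267 in MDA-MB-468 at levels of at most 0.344 FPKM (adjusted p = 0.159 and 0.166). Of the 13 antagonists in that line, 3 had all PKC412 samples above DMSO and 3 had all below, where 39.6% and 16.3% of all genes did.

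The most abundant genes of each list gave the setting in which SMOC1 and the targets were measured. GDF15, a stress-responsive ligand, was at 83.4 ± 1.38 FPKM in ZR75-1 DMSO and 63.7 ± 4.83 in PKC412, and below 1 FPKM in both MDA-MB-468 groups. TGFB1 was at 30.7 ± 3.01 and 27.7 ± 0.995 FPKM in MDA-MB-468 and at 8.84 ± 0.581 and 9.31 ± 1.79 in ZR75-1. FSTL3, a secreted binder of activins, was at 3.99 ± 0.490 and 2.74 ± 0.118 FPKM in MDA-MB-468 and at 19.0 ± 3.05 and 19.7 ± 3.20 in ZR75-1. TCF3, the E protein partner of the ID proteins, was at 17.8 ± 0.259 and 18.5 ± 0.606 FPKM in MDA-MB-468 and at 9.93 ± 1.24 and 9.62 ± 0.575 in ZR75-1. None of these 4 passed for PKC412 in either line.

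Among the abundant genes not described above, 4 had a ratio of means of at least 2 or at most 0.5 in 1 line or both, and these 4 did not pass. TOB1, an antiproliferative protein that binds SMADs, was at 4.53 ± 1.99 FPKM in MDA-MB-468 DMSO and 16.8 ± 6.31 in PKC412 (log2 difference 1.67, adjusted p = 0.178). In ZR75-1 it was at 21.5 ± 12.7 and 62.0 ± 21.8 FPKM (log2 difference 1.55, adjusted p = 0.275). TGFBR1, the type I receptor for TGFB, was at 1.68 ± 0.534 and 5.31 ± 2.09 FPKM in MDA-MB-468 and at 1.99 ± 1.42 and 10.6 ± 7.56 in ZR75-1 (adjusted p = 0.326 and 0.333). INHBB, the activin beta B chain, was at 15.3 ± 5.39 FPKM in ZR75-1 DMSO and 5.95 ± 0.851 in PKC412 (log2 difference -1.20, adjusted p = 0.0627). SMAD2 was at 2.93 ± 0.778 and 6.03 ± 1.69 FPKM in MDA-MB-468 (adjusted p = 0.325). After GC and length adjustment TOB1 passed in both lines (adjusted p = 0.0308 and 0.0224) and TGFBR1 and INHBB in ZR75-1 (0.00707 and 0.00571). INHBB in ZR75-1 also passed after rescaling by median ratios (-1.31, adjusted p = 0.0161). These were the 2 of 10 other settings with all samples kept in which it did.

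SMAD4, chosen for mention after its values were seen, was at 0.0258 to 0.0998 FPKM in the 5 MDA-MB-468 samples and at 0.969 to 3.05 FPKM in the 5 ZR75-1 samples. The lines did not overlap in SMAD4, the shared partner of the receptor-activated SMADs.

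The 5 genes with a profile nearest to that of SMOC1 were RASD1, NR4A1, TARS2, PTP4A1 and FAM176C. Likeness was the root mean square difference over the 10 samples of log2(FPKM + 1) minus the DMSO mean of the line, among 12342 genes with a mean above 1 FPKM in at least 1 group. The root mean square difference was 0.69 for RASD1, 0.71 for NR4A1, 0.77 for TARS2, 0.81 for PTP4A1 and 0.92 for FAM176C, in log2 units. NR4A1, an orphan nuclear receptor, was at 3.31 and 3.03 FPKM in MDA-MB-468 DMSO and at 11.5, 10.9 and 12.4 FPKM in PKC412, and at 7.29 and 9.55 against 51.6, 58.2 and 56.0 FPKM in ZR75-1. RASD1, a small GTPase, was at 0.102 and 0.101 FPKM against 1.99, 2.09 and 1.74 FPKM in MDA-MB-468, and at 0.512 and 0.553 against 10.4, 11.8 and 9.77 FPKM in ZR75-1. In both genes the PKC412 samples lay far above the DMSO samples in each line. They were chosen for this likeness and were not tested.

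By the same measure ID2 ranked 32 among the 12342 genes and was the member most like SMOC1. SMAD7 ranked 1690, ID3 1903 and BMP4 11985, and the remaining members lay between ID3 and BMP4. By Pearson's correlation of the profiles ID2 ranked 201 (r = 0.857). ID2 was not called for PKC412 in either line.

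**Figure D4:**
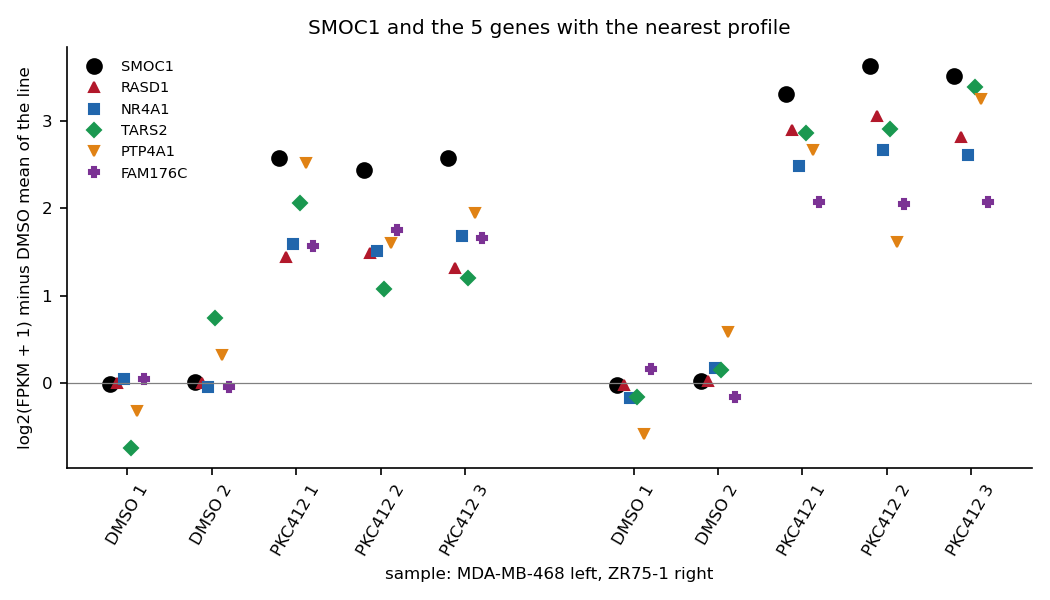
Log2(FPKM + 1) minus the DMSO mean of the line (y axis) in each sample (x axis, MDA-MB-468 left and ZR75-1 right) for SMOC1 and the 5 genes with the nearest profile. All 6 genes are above 1 in every PKC412 sample, and TARS2 and PTP4A1 spread more within groups than SMOC1 and NR4A1.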

How the data were processed

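The deposited values are FPKM per gene symbol, 1 table per sample, which the authors computed from reads of an Illumina HiSeq run. The submitters' processing notes name CASAVA 1.82, TopHat2 and hg19, and the annotation is not given in the sources used here. The pipeline divides reads in fractions, since values go down to 2.194e-318 FPKM, so read counts could not be recovered, and genes that share reads with overlapping genes or copies have uncertain values. Groups were taken from the sample labels. Differences in log2(FPKM + 1) were fitted with limma 3.58.1 (R 4.3.3), using 1 mean per group over all 10 samples, a variance trend, and Benjamini-Hochberg adjustment over the 16071 genes with a mean above 0.1 FPKM in at least 1 group, with calls at 0.05. The pseudocount of 1 understates the change of low genes. The fit was also run on simulated data with independent noise for each gene and sample. Those data lack the sample-wide deviations described above, so the run does not bear on them. PKC412 was contrasted with DMSO within each line, those 2 contrasts with each other, and DMSO between lines.

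The members and gene lists were chosen with earlier results of these data known. Genes named in the text were the members, list genes called for PKC412 in either line or for the difference, the 2 most abundant genes of each list (not all are printed), and the 5 genes nearest to SMOC1. For the abundant genes a change is given where the ratio of means reached 2 in either direction. Alternatives were other pseudocounts and filters, median-ratio rescaling within a line, a replicate block, each line alone, no variance trend and each sample left out. An adjustment for GC content and transcript length (polynomials of degree 3 per sample, on GENCODE 29 transcripts, 88.1% of symbols matched) was chosen after seeing the data. A drug effect related to GC content would be removed as well. Gene positions are from GENCODE 29 on GRCh38 and promoter windows from RefSeq on GRCh38.p14, a different build from that of the alignment, and the files carry no coordinates. Python 3.11.15 with pandas 2.3.3 and matplotlib 3.10.9 was used for the rest.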

Additional observations from a re-analysis of the deposited data

Results flagged for a closer look

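ID3 was singled out because its samples separated in opposite directions in the 2 lines, the ratio of mean FPKM being 0.663 for MDA-MB-468 but 3.10 for ZR75-1. The test of that difference gave a log2 value of -2.10 and did not pass (adjusted p = 0.230). In limma's test of the difference in PKC412 change between the lines, CTGF (-2.26, adjusted p = 0.00195), SMOC2 (-1.76, adjusted p = 0.0495) and SPOCK2 (-0.87, adjusted p = 0.0386) passed. CTGF and SPOCK2 are at most 0.203 FPKM in ZR75-1 and SMOC2 is listed at 0 in MDA-MB-468, so on the log2(FPKM + 1) scale 1 line could show little or no change in each of the 3 genes. SMOC2 and SPOCK2 passed the filter on low values through 1 line alone. No group of 4 or more samples was available, so no sample was tested as an outlier.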

How the results depend on the processing

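The number of pathway genes changed by PKC412 in MDA-MB-468 was 4. It was 1 with a pseudocount of 0.1 or 0.01 (0.722% and 0.641% of all genes). It was 2 with a mean FPKM above 1 required (1.2% of all genes) and 1 with the line fitted alone (0.542%). With GC and length adjusted values it was 13 (3.61% of all genes, against 1.26%), and it varied across the fits with 1 sample left out. In ZR75-1 it was 3, and 0 with the line fitted alone (13 at an unadjusted p under 0.05 with limma), where 0.0823% of all genes passed. It was 11 with GC and length adjusted values (2.82% of all genes, against 0.946%) and varied across the fits with 1 sample left out. For the difference between the lines it was 3, and 0 with either smaller pseudocount (16 at an unadjusted p under 0.05). With a pseudocount of 0.1 or 0.01, 0.168% and 0.149% of all genes passed. The number was 6 with GC and length adjusted values (1.31% of all genes, against 0.268%) and varied across the fits with 1 sample left out. The DMSO levels differed for 52 of the 94 genes (55.3%), where 42.4% of all genes differed, and the number was lower in some fits with 1 sample left out. Many of the 52 passed the filter on low values through 1 line alone, which by itself favours a difference. Besides ID4, SMOC2 and SPOCK2 they include BMP2, BMP5, BMP6, BMP8A, CHRDL1, CHRDL2, DAND5, HEY1, INHBA, RGMA, MSX2 and SMAD4. How far this raised the share was not tested. Under Pearson's correlation in place of the root mean square difference, 2 of the 5 genes nearest to SMOC1 (NR4A1, FAM176C) stayed. SMOC1 itself kept its direction in every alternative run, with a log2 difference of 2.40 to 2.91 in MDA-MB-468 and 3.31 to 4.21 in ZR75-1. The cause of these differences was not tested.

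With a replicate block no pathway gene was called in MDA-MB-468, ZR75-1 or the difference (0, 0 and 0, with 13, 10 and 9 at an unadjusted p under 0.05). That fit called 0 of all 16071 genes in each of these 3 comparisons, so its zeros say nothing particular to the pathway. None was called with the block and GC adjustment together either (0, 0 and 0, with 23, 19 and 18). There 0.0187%, 0.0187% and 0% of all genes were called. With the block alone, DMSO levels differed for 29 of 94 genes, where 23.4% of all genes did. The block leaves few degrees of freedom, and same-numbered samples did not deviate together over 7685 genes. Their correlations were -0.688 and -0.608 in MDA-MB-468 and 0.123 and -0.627 in ZR75-1, so the numbers were not taken as pairs. The deviations of 2 DMSO samples mirror each other. DMSO sample 2 correlated at 0.688 with PKC412 sample 1 in MDA-MB-468 and at 0.751 with PKC412 sample 3 in ZR75-1. The main fit does not account for deviations shared between groups.

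Signs turned for some values that were not called. BAMBI in ZR75-1 was -0.12 after rescaling, -0.076 with GC adjustment and -0.085 with the block as well. BMP6 in ZR75-1 was -0.016 with the block and -0.016 with both. The SMAD7 difference between the lines was 0.046 with both, and the ID1 difference in DMSO was -0.069 with GC adjustment and with both. With each sample left out, the log2 differences that turned were in ZR75-1 ID1 (-0.0020 to 1.02), ID4 (-0.0082 to 0.069), SMAD7 (-0.054 to 1.10), BAMBI (-0.31 to 0.33), BMP4 (-0.54 to 0.12) and BMP6 (-0.016 to 0.055), in MDA-MB-468 ANGPTL4 (-0.16 to 0.029), between the lines SMAD7 (-0.70 to 0.45) and BAMBI (-0.10 to 0.53), and in DMSO ID1 (-0.19 to 0.28) and ID2 (-1.26 to 0.16). Groups of 2 and 3 samples and an unknown read depth limit what could be called.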
